A study of Mus musculus with 80 samples.

Results

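Cytochrome c oxidase, complex IV of the respiratory chain, was followed here through 10 of its nucleus-encoded subunit genes in whole mouse kidney: Cox4i1, Cox5a, Cox5b, Cox6a1, Cox6b1, Cox6c, Cox7a2, Cox7b, Cox7c and Cox8a. Every clone with one of these symbols was taken, which gave 12 of the 16896 clones on the arrays. Cox4i1 had 3 clones and each of the other 9 genes had 1. Kidneys came from 40 C57BL/6 mice, an inbred strain with no genotype or drug arm, all fed regular chow without restriction. Males and females were taken at 17 to 44, 169 to 194, 476 to 499 and 704 to 743 days, 5 mice in each of the 8 groups. The series compares ages and sexes. Each mouse was its own sample and was hybridised to a pair of nylon filters, set A and set B, that carry different clones. Values are z scores, that is, distances from the mean of an array in units of its SD, so differences are in array SDs, cannot be read as folds, and do not rank one gene's level against another's.

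Complex IV takes electrons from cytochrome c, passes them to oxygen and pumps protons across the inner mitochondrial membrane. Its catalytic core is encoded by the mitochondrial genome, and the nucleus-encoded subunits surround that core and take part in its assembly, stability and regulation. The proximal tubule of the kidney, which reabsorbs most of the filtered solute, is packed with mitochondria and depends on oxidative phosphorylation. In RNA from a whole organ, fewer cells of one type and less RNA per cell cannot be told apart.

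The 10 genes were chosen by measured values: their means at 704 to 743 days lay below those at 169 to 194 days in these mice. That difference, the one between 169 to 194 and 17 to 44 days, which uses the same adult mice, and the slope over all ages are therefore given as descriptions with no test. On the lower side of the dividing line, the gene closest to 0 was Cox7a2 at -0.0469. On the other side stood Cox7a2l, a related gene whose product takes part in joining complexes III and IV, at 0.0322 ± 0.0816 (SE), and Cox6b2, the testis form of Cox6b1, at 0.143 ± 0.120. The choice did not use the sex of the mice or the contrast of 476 to 499 with 17 to 44 days. Those comparisons, and whether the sex difference varies with age, were tested with limma over all 16896 clones.

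Promoters of complex IV subunit genes are known to bind nuclear respiratory factor 1 (NRF-1), the ETS-family factor GABP, YY1 and SP1. RefSeq promoter windows of the GRCm38.p6 build, each running from 250 bases before to 50 bases after the gene's start, were matched by symbol for 8 of the 10 genes. No window was listed for Cox4i1 and Cox6c. Windows are shown for the 3 genes with the largest differences at the oldest age and for Cox6a1, the one member with the NRF-1 letters. Capitals mark any of 4 motifs, searched on both strands, with runs merged where matches overlap: GCGCA and GCGC with any base between them (NRF-1), CGGAAG (the ETS core), GCCATNTT (YY1) and GGGCGG (the GC box bound by SP1). The sequences read 5′ to 3′ on the strand of the gene. Cox7b lies on chromosome X (chrX:106015450-106015749, plus strand), Cox5a on chromosome 9 (chr9:57520982-57521281, plus strand), Cox8a on chromosome 19 (chr19:7217567-7217866, minus strand) and Cox6a1 on chromosome 5 (chr5:115348909-115349208, minus strand).
Cox7b: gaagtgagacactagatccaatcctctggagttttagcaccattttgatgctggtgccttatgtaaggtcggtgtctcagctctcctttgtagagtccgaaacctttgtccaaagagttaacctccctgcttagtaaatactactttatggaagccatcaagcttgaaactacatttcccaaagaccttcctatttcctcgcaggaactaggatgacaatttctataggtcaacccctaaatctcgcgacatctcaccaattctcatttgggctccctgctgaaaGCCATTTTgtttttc
Cox5a: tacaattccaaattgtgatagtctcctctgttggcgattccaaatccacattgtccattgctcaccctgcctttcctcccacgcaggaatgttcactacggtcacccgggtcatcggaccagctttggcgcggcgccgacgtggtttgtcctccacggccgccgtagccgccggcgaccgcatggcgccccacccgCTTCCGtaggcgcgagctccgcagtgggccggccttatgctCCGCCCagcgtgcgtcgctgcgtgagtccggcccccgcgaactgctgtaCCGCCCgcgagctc
Cox8a: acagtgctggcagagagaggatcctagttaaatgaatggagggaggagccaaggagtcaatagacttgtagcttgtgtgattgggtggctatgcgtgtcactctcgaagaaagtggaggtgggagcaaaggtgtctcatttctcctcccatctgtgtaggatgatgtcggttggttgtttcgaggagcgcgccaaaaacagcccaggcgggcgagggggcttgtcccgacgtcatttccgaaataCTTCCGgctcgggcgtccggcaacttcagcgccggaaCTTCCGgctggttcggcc
Cox6a1: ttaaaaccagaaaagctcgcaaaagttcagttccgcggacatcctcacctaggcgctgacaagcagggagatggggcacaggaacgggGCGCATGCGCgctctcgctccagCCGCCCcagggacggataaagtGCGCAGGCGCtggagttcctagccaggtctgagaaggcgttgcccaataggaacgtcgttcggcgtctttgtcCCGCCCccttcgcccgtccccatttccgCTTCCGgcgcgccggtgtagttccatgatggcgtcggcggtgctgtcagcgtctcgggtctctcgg

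The ETS core was the motif most members had in common. It was found in 6 of the 8 windows (Cox5a, Cox5b, Cox6a1, Cox6b1, Cox7a2 and Cox8a), in 31.3% of the 7468 windows of genes with a clone here and in 16.9% of all 32851 windows. Cox8a held it at 2 places, with first bases 5 before and 33 after the gene's start. The GC box was in 3 member windows (Cox5a, Cox6a1 and Cox7a2) against 63.0% of the windows of genes with a clone. The NRF-1 letters were in Cox6a1 only among the 8, at 2 places, and in 10.5% of windows of genes with a clone. The YY1 letters were in Cox7b only, 36 bases after its start, and in 8.7% of those windows. Cox7b was also the member window poorest in G and C, at 43.3%, whereas Cox5a had 65.0%. None of the 4 motifs was found in the window of Cox7c. A match describes letters in a window and says nothing of binding.

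**Figure D1:**
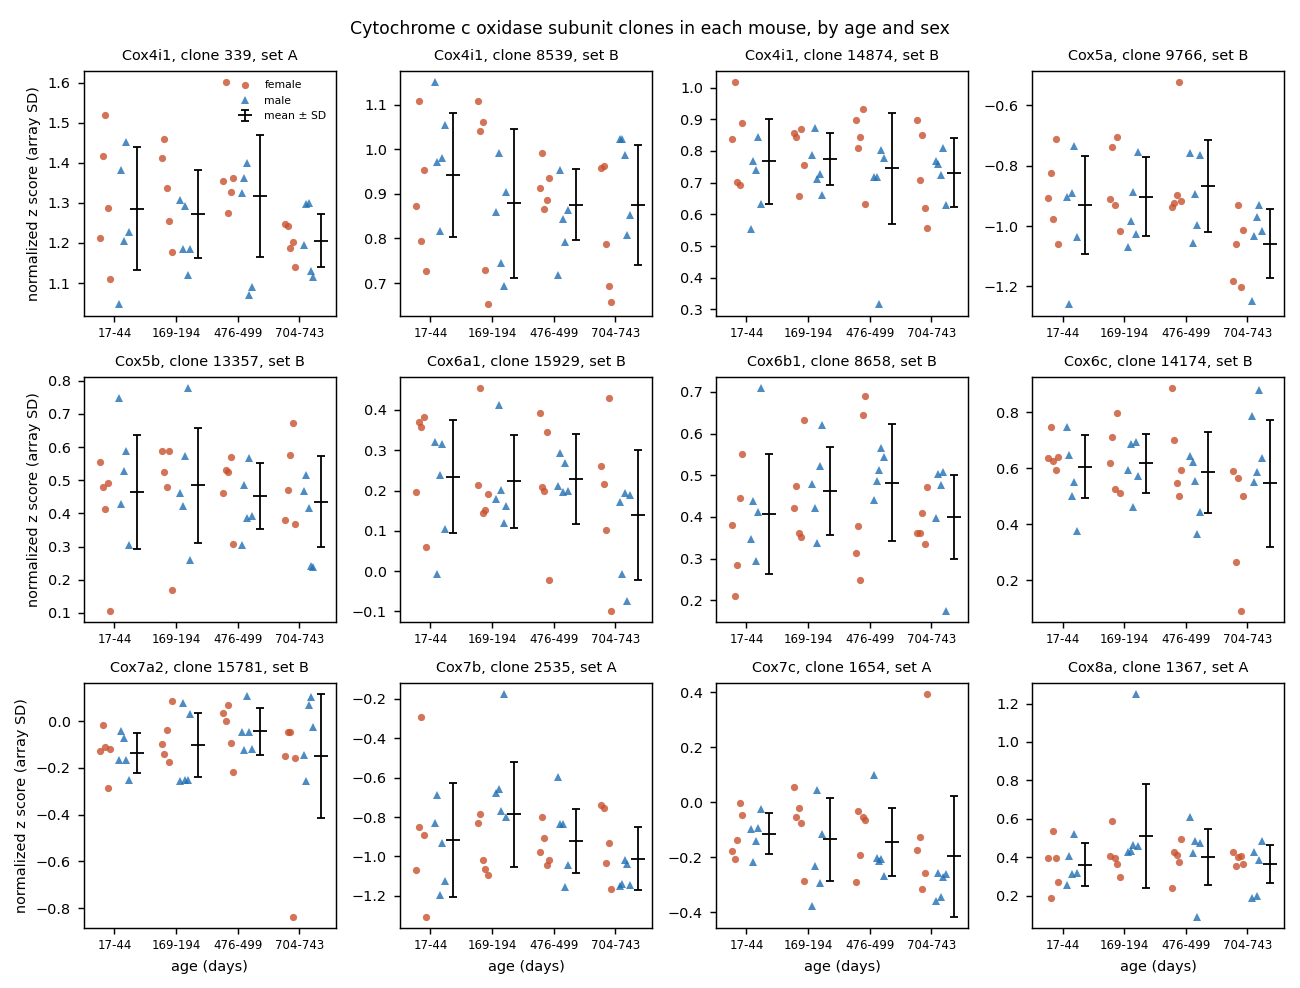
Normalized z score (vertical axis, array SD) of each of the 12 clones in every mouse, by age in days, with circles for females, triangles for males and a bar for the mean ± SD of 10 mice; the vertical scale differs between panels. Age groups overlap in every panel, and single mice stand apart in several, among them a male of 169 to 194 days at 1.25 for Cox8a and a female of 704 to 743 days at -0.836 for Cox7a2.

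At 704 to 743 days each of the 10 genes had a lower mean than at 169 to 194 days, the direction by which they were chosen. The median of the 10 differences was -0.0694, against 0.00151 over the 7151 genes with a clone, of which 49.0% were lower. Over all clones 49.4% were lower, 0 were called by limma at an adjusted p under 0.05 (0%), 398 had an unadjusted p under 0.05 (2.36%), and ordinary least squares called 0 with 418 under that unadjusted level. That unadjusted count was 676 with round as a block, 938 with array weights and 658 without the 5 mice with an outlying array. The differences ran from -0.0469 for Cox7a2 to -0.225 for Cox7b, and 7 of the 10 lay between -0.0469 and -0.0843. For most subunits the difference was smaller than the SD within an age group, as the plot of each clone in every mouse shows. Rounds of arrays agreed unevenly. The difference was below 0 in 5 of 5 rounds for Cox4i1 (spot 339), Cox5a and Cox7b. It was below 0 in 4 for Cox6b1, Cox7c and Cox8a, in 3 for Cox5b, Cox6a1 and Cox7a2, and in 2 for Cox6c. Counts by round or by pairs of mice, and fits without single mice, use the values that chose the genes. They are no support for the difference.

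Cox7b, a small membrane subunit needed for assembly of the complex and encoded on the X chromosome, had the largest difference. Its z score ran from -1.10 through a median of -0.792 to -0.175 in the 10 mice of 169 to 194 days and from -1.17 through -1.03 to -0.739 in the 10 of 704 to 743 days. The ranges overlapped, and the difference of -0.225 ± 0.0930 (SE) was negative in 7 of 10 couples, a couple being 2 mice of one sex and one round of arrays. Split by sex, Cox7b was lower in males, by -0.483 ± 0.132, and at 0.0339 ± 0.132 in females. In males the 5 values of 169 to 194 days were -0.677, -0.656, -0.770, -0.175 and -0.799. Those of 704 to 743 days ran from -1.15 to -1.02. How many of all clones leave such a gap between these males was not counted, so the gap is description only. In females the ranges at the same ages, -1.10 to -0.785 and -1.17 to -0.739, lay over each other. The clone was dim, at the 15.8th percentile of brightness in its set.

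Cox5a, a subunit on the matrix side of the complex, was lower in both sexes. Its z score ran from -1.07 through a median of -0.921 to -0.703 at 169 to 194 days and from -1.25 through -1.02 to -0.931 at 704 to 743 days, and the ranges overlapped. The difference was -0.156 ± 0.0661, negative in 7 of 10 couples, with -0.0946 ± 0.0935 in males and -0.218 ± 0.0935 in females. It was below 0 in 5 of 5 rounds of arrays, and ran from -0.176 to -0.130 when each mouse was left out in turn. These figures use the values that chose the genes and are description only. This clone was also dim, at the 16.0th percentile.

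Cox8a, the smallest subunit of the complex, came next at -0.145 ± 0.0776, negative in 5 of 10 couples. It was at -0.270 ± 0.110 in males and -0.0203 ± 0.110 in females. Its values ran from 0.298 through 0.431 to 1.25 at 169 to 194 days and from 0.187 through 0.395 to 0.483 at 704 to 743 days. A single male, replicate 4 of 169 to 194 days, supplied the 1.25, and the other 4 males of that group lay between 0.428 and 0.465. Without that mouse the difference was -0.0651. The same mouse had the highest Cox7b value of its group, and without it the Cox7b difference was -0.170. Its set A array correlated less with the other arrays (mean r 0.922) than most, and its part in the result was not tested beyond these values.

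Cox4i1, the largest nucleus-encoded subunit and a site where adenine nucleotides act on the enzyme, was the one member measured by several clones. The brightest clone, spot 339 in set A, ran from 1.12 through 1.27 to 1.46 at 169 to 194 days and from 1.11 through 1.20 to 1.30 at 704 to 743 days. Its difference was -0.0674 ± 0.0608, below 0 in 7 of 10 couples and in 5 of 5 rounds. Those counts use the values that chose the genes and are description only. Both clones of set B were below 0 in 3 of 5 rounds. The clones of set B gave -0.0427 ± 0.0590 (spot 14874) and -0.00318 ± 0.0610 (spot 8539), and the latter was 0.0206 without female replicate 1 of 169 to 194 days and 0.0133 with array weights. Over the 40 mice, with round means subtracted, the 3 clones correlated weakly, with r of 0.178, 0.0478 and -0.0214. Clones of one gene thus ordered the mice in different ways.

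Cox6a1, the form of subunit VIa found outside heart and muscle, was at -0.0843 ± 0.0634, and at -0.0493 without female replicate 5 of 704 to 743 days. It ranged from 0.118 through 0.186 to 0.455 at 169 to 194 days and from -0.0980 through 0.180 to 0.429 at 704 to 743 days, so the medians were nearly equal while the means were 0.223 and 0.139. At the high end of the adult group stood a male (0.414) and a female (0.455), with the other 8 adults at or below 0.214, and at the low end of the oldest group 3 mice lay below 0. Cox6b1, which faces the intermembrane space and joins the monomers of the dimeric enzyme, was at -0.0624 ± 0.0603, with medians of 0.448 and 0.403. It was at -0.0328 without male replicate 5 of 704 to 743 days and at -0.0186 with array weights. Cox5b, a zinc-binding subunit on the matrix side, was at -0.0500 ± 0.0680, with medians of 0.502 and 0.442. It was negative in 5 of 10 couples, with -0.124 ± 0.0962 in males and 0.0237 ± 0.0962 in females. Rounds of arrays held 49.1% of the variance of Cox5b between mice, the largest share among the 12 clones. Without male replicate 4 of 169 to 194 days its difference was -0.0151, and without female replicate 5 of that age, whose set B array also correlated less with the others, it was -0.0876.

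Cox7c, a small membrane subunit, was at -0.0620 ± 0.0688. Its values ran from -0.378 through -0.0963 to 0.0558 at 169 to 194 days and from -0.360 through -0.258 to 0.394 at 704 to 743 days. The highest of these was a single female, replicate 5, while the other 9 of the oldest mice lay at or below -0.128. The difference was -0.123 without that female and -0.0320 without male replicate 3 of 169 to 194 days. All 5 oldest males lay between -0.360 and -0.257.

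Cox6c and Cox7a2 gave differences of opposite sign in the sexes, as did Cox5b, Cox7b and Cox4i1 spot 8539. Cox6c, a membrane subunit, was at -0.0714 ± 0.0632 over both sexes, with 0.0877 ± 0.0893 in males and -0.230 ± 0.0893 in females. Over both sexes it was negative in 5 of 10 couples. Cox7a2, the form of subunit VIIa found outside heart and muscle, was at -0.0469 ± 0.0725, with 0.0798 ± 0.103 in males and -0.174 ± 0.103 in females. For both genes the lowest of all 40 mice was the same female, replicate 4 of 704 to 743 days, at 0.0925 for Cox6c and -0.836 for Cox7a2. Her set B array had the lowest mean correlation with the others of its set, 0.916. Without her Cox6c was at -0.0327 and Cox7a2 at 0.0268, so that 9 of 10 genes were lower. Cox7a2 was also above 0 with array weights (0.0705) and without the 5 mice with an outlying array (0.0316).

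**Figure D2:**
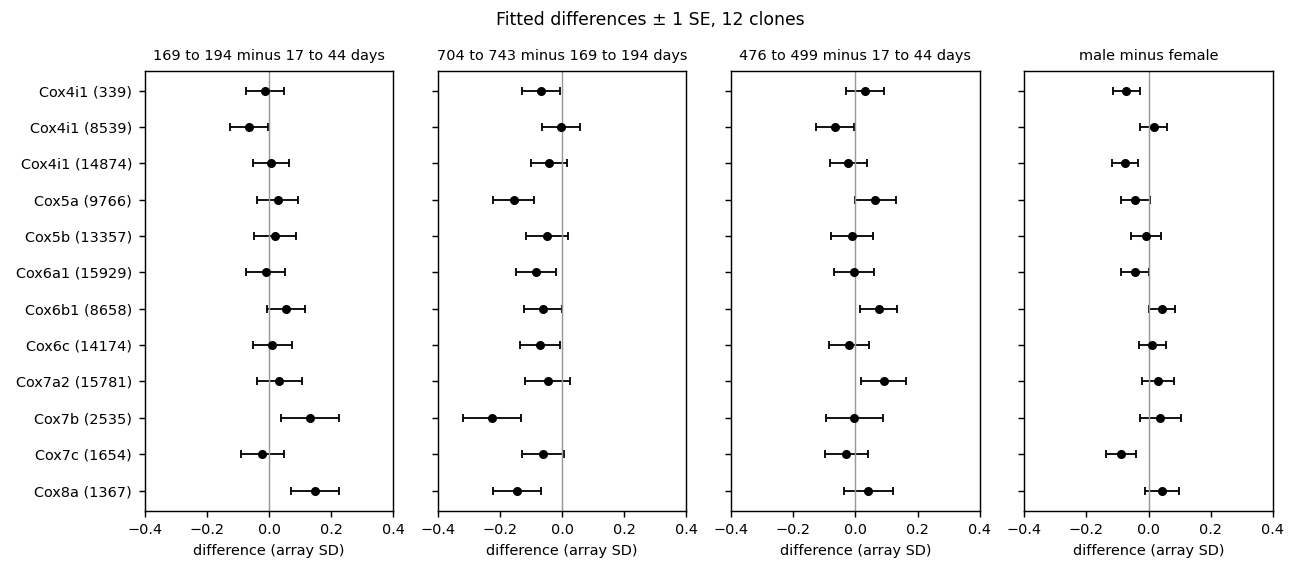
Fitted differences (horizontal axis, array SD) of the 12 clones in 4 comparisons, each point with a bar of 1 SE on either side. All 12 points lie below 0 for 704 to 743 minus 169 to 194 days, the comparison used to choose the genes, and they lie on both sides of 0 in the other 3.

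The age at which the members were lowest was nearly always the oldest. The mean at 704 to 743 days was the lowest of the 4 age means for 9 of the 10 genes, and for 24.3% of the genes with a clone; for the other, Cox8a, the lowest was at 17 to 44 days. Against 476 to 499 days all 10 were lower at the oldest age (median -0.0866, 52.3% of genes with a clone lower), and against 17 to 44 days 9 were lower (median -0.0702, 46.5% lower). These counts share the oldest mice with the comparison that chose the genes and are no separate support for it. Between 169 to 194 and 476 to 499 days 5 genes were lower and 5 higher, with a median of -0.000875. The highest mean was at 169 to 194 days for 4 genes, at 476 to 499 days for 4 and at 17 to 44 days for 2.

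Set beside these were the differences of 169 to 194 minus 17 to 44 days. They were above 0 for 7 genes (3950 of the 7151 genes with a clone, 51% of all clones). They were below 0 for 3 (44.8% of genes with a clone lower). Their median was 0.0240 (0.00989 over genes with a clone). They share the mice of 169 to 194 days with the later comparison, so a high value there moves one up and the other down. Cox8a at 0.149 ± 0.0776 and Cox7b at 0.131 ± 0.0930 were furthest from 0, each above it in 8 of 10 couples, and Cox4i1 (-0.0125), Cox6a1 (-0.0109) and Cox7c (-0.0212) lay below. The slope over all ages, with sex in the model, was below 0 for 9 of the 10 genes (median -0.0311 per year, 0.00408 over genes with a clone). It was below 0 for 46.1% of genes with a clone and 49.7% of all clones. It was steepest for Cox7b (-0.0724 ± 0.0481) and Cox5a (-0.0568 ± 0.0327), and Cox7a2 was at 0.000512 ± 0.0353.

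**Figure D3:**
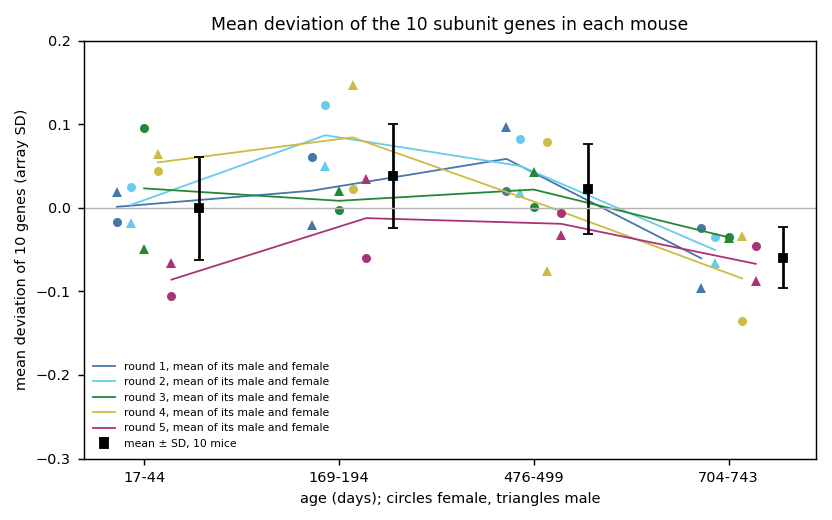
Mean deviation of the 10 genes from their means over all mice (vertical axis, array SD) in each mouse by age in days, with colours for the 5 rounds of arrays, lines through each round's mean of its male and female, and squares for the mean ± SD of 10 mice. All 10 mice of 704 to 743 days lie below 0, between -0.135 and -0.0244, and in every round the mean is lower at 704 to 743 than at 169 to 194 days. The genes were chosen by this difference in these mice, so its sign here is no separate support.

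Averaged over the 10 genes, the deviation of a mouse from the mean of all mice was -0.000734 ± 0.0621 (SD, n = 10) at 17 to 44 days, 0.0376 ± 0.0623 at 169 to 194, 0.0227 ± 0.0542 at 476 to 499 and -0.0595 ± 0.0363 at 704 to 743 days. All 10 of the oldest mice were below 0, but their range of -0.135 to -0.0244 overlapped those of the other ages, which began at -0.106, -0.0597 and -0.0750. The difference between the oldest and the 169 to 194 day mice was -0.0810, -0.137, -0.0436, -0.169 and -0.0547 in rounds 1 to 5. The genes were chosen by this difference in these mice. Its sign in each round and the low values of the oldest mice are thus no separate support for it. The 5 oldest males were at -0.0640 ± 0.0290 and the 5 oldest females at -0.0551 ± 0.0456. At 169 to 194 days the sexes were at 0.0464 ± 0.0618 and 0.0288 ± 0.0686.

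The youngest group joined 5 mice of 17 to 21 days, around weaning, with 5 of 33 to 44 days. The mean over the 10 genes was 0.0238 ± 0.0586 in the former and -0.0253 ± 0.0612 in the latter, with overlapping ranges. At 33 to 44 days 8 of the 10 genes were lower than at 17 to 21 days (median -0.0856, with 52.5% of genes with a clone lower). Cox4i1 (spot 339) was at 1.36 ± 0.144 and 1.21 ± 0.134, and Cox6b1 went the other way, from 0.317 ± 0.0806 to 0.498 ± 0.139. The younger subset held 2 males and the older held 3, and no test was made of this division.

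Between 17 to 44 and 476 to 499 days, a comparison the choice of genes did not use, no subunit passed the test. Of the 10 genes 5 were higher (3943 of the 7151 genes with a clone, 50.7% of all clones). The other 5 were lower (44.9% of genes with a clone lower). The median was 0.0143 (0.0101 over genes with a clone). Limma called 0 of the 16896 clones (0%), with 903 at an unadjusted p under 0.05 (5.34%), and ordinary least squares called 0 with 951. None of the 12 member clones was among the 903. The largest value was Cox7a2, whose z score ran from -0.287 through -0.123 to -0.0178 at 17 to 44 days and from -0.218 through -0.0478 to 0.108 at 476 to 499 days. Its difference was 0.0916 ± 0.0725 (limma adjusted p = 0.969, positive in 8 of 10 couples). Cox6b1 was at 0.0751 ± 0.0603 (limma adjusted p = 0.969), Cox5a at 0.0632 ± 0.0661 and Cox8a at 0.0418 ± 0.0776. The lower members lay close to 0, with Cox7c at -0.0292 ± 0.0688, Cox6c at -0.0208 ± 0.0632 and Cox7b at -0.00298 ± 0.0930. The Cox4i1 clones disagreed in sign, at 0.0315 (spot 339), -0.0227 (spot 14874) and -0.0671 (spot 8539). The 95% confidence intervals still allowed moderate changes, for instance -0.191 to 0.185 for Cox7b and -0.0551 to 0.238 for Cox7a2. Without the 5 mice of 17 to 21 days the median over the 10 genes was 0.0630, with 7 genes higher, and with array weights it was -0.0133.

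Between males and females no subunit passed the test. Limma called 18 of the 16896 clones between the sexes (0.107%), with 757 at an unadjusted p under 0.05 (4.48%) and 1306 with array weights. In the former fit 0 of the 12 member clones were in either set. Genes of the sex chromosomes that mark sex did not pass the test either: Xist, expressed from the inactive X, was at -0.0344 ± 0.0515, and Y-linked Uty and Eif2s3y were at 0.0118 ± 0.0603 and 0.0374 ± 0.0635 in males minus females. Their clones were dim, between the 12.4th and 26.1th percentile of brightness, so these clones give no check of the sex labels. Of the 10 genes 5 were higher in males (3617 of the 7151 genes with a clone, 49.2% of all clones). The other 5 were lower (49.4% of genes with a clone lower). The median was 0.00230. The lowest unadjusted values were in Cox7c and Cox4i1. Cox7c ran from -0.378 through -0.216 to 0.0975 in 20 males and from -0.315 through -0.102 to 0.394 in 20 females, a difference of -0.0886 ± 0.0487 (limma adjusted p = 0.982, lower in the male in 15 of 20 couples of one age and round). Cox4i1 was lower in males by -0.0722 ± 0.0430 at spot 339 (14 of 20 couples) and -0.0770 ± 0.0417 at spot 14874 (12 of 20), both with a limma adjusted p of 0.982, and was at 0.0170 ± 0.0431 at spot 8539. X-linked Cox7b was at 0.0380 ± 0.0657, with an interval of -0.0950 to 0.171. Means over the 10 genes were 0.00430 ± 0.0659 in females and -0.00430 ± 0.0646 in males (SD, n = 20).

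Whether the sex difference changed with age was tested by an F test, and no clone of the 16896 was called by limma (0%), nor by ordinary least squares, with 545 (3.23%) and 540 at an unadjusted p under 0.05. With round as a block that unadjusted count was 1120, and with array weights it was 998. Cox6c and Cox7b were the members with the lowest values. For Cox6c the F was 4.35 (unadjusted p = 0.00973, limma adjusted p = 1.00). At 704 to 743 days the 5 males were at 0.788, 0.553, 0.589, 0.879 and 0.638 and the 5 females at 0.589, 0.266, 0.564, 0.0925 and 0.501, so 3 of the 5 males were above every female and the groups overlapped. The difference there was 0.287 ± 0.0893 (limma adjusted p = 0.9996), while at 17 to 44, 169 to 194 and 476 to 499 days it was -0.0845, -0.0315 and -0.121. Without female replicate 4 of 704 to 743 days the unadjusted p was 0.0425. For Cox7b the F was 2.91 (unadjusted p = 0.0466, limma adjusted p = 1.00), with males above females by 0.343 ± 0.132 at 169 to 194 days and below them by -0.174 ± 0.132 at 704 to 743 days. Without male replicate 4 of 169 to 194 days the unadjusted p for Cox7b was 0.143. Over the alternatives the lowest adjusted p was 0.734 for Cox6c and 0.740 for Cox7b.

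**Figure D4:**
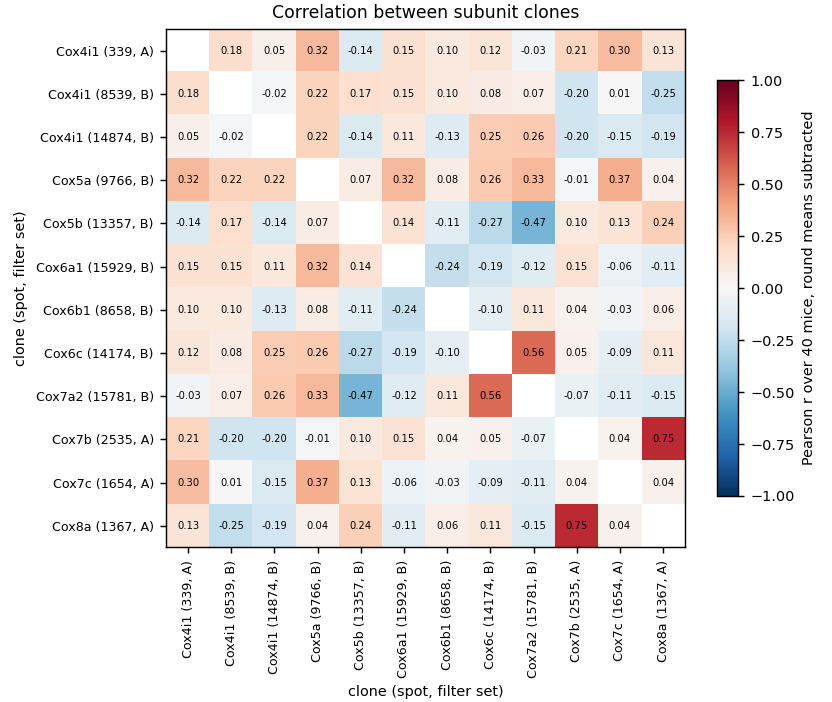
Pearson correlation between the 12 clones over 40 mice with the mean of each round of arrays subtracted; clones are labelled by gene, spot and filter set, and colour and number give r. Cox7b and Cox8a (0.749) and Cox6c and Cox7a2 (0.565) stand out, Cox5b and Cox7a2 have the lowest value (-0.468), and most other cells are near 0.

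The subunits varied together only weakly from mouse to mouse. Over the 45 pairs of genes, with round means subtracted, r was above 0 in 28, with a median of 0.0634 and a range of -0.468 to 0.749. For all pairs of genes with a clone the medians were -0.00578 within set A, -0.0123 within set B and 0.00202 between sets. Of those pairs 49%, 48.3% and 50.4% were above 0. The same mice and, within a set, the same arrays enter both sides of a pair. Age means were left in, so the lower values at the oldest age, by which the genes were chosen, enter every r given here. The highest pair, Cox7b with Cox8a (both in set A), was at 0.749 over 40 mice and 0.572 without male replicate 4 of 169 to 194 days. Cox6c with Cox7a2 (both in set B) was at 0.565 and, without female replicate 4 of 704 to 743 days, at 0.277. These mice were left out after their values had been seen. Cox5b ran against Cox7a2 (-0.468) and Cox6c (-0.273). Set against the mean of the other 9 genes, Cox5a had the highest r (0.451), followed by Cox8a (0.385), Cox7b (0.380) and Cox4i1 (0.338), and the other 6 lay between -0.0419 and 0.159.

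The clones of other genes whose pattern was most like the mean of the 10, by Pearson r over 40 mice with round means subtracted, were Mir22hg (0.746), Atp5b (0.708), Zranb2 (0.691), Gspt1 (0.684), H19 (0.682), Med4 (0.669), Grhl1 (0.656), Afap1l2 (0.655), Hba-a1 (0.653) and Agtr2 (0.645). Atp5b, the catalytic beta subunit of ATP synthase, was the only one of them in the respiratory lists, and its other clones were at 0.404 and 0.413. Other clones of Gspt1 ran from -0.338 to 0.118 and of H19 from -0.235 to 0.312. The other clone of Afap1l2 was at 0.103, and the other 11 of Hba-a1 ran from -0.102 to 0.604. Without male replicate 4 of 169 to 194 days the 10 values lay between 0.578 and 0.723. Age means were left in, so the lower values at the oldest age, by which the members were chosen, enter this ranking. In the comparison that chose the members, these 10 clones were all lower at the oldest age, from -0.172 (Gspt1) to -0.0936 (Hba-a1). The ranking is thus description only, and likeness apart from that age difference was not tested. Grhl1, Hba-a1 and Agtr2 were in set B and the rest of the 10 in set A, with Cox4i1 spot 339, Cox7b, Cox7c and Cox8a. Those of set A had low spot numbers, from 134 to 1919, as did the members there, from 339 to 2535. Also in set A, other clones of Gspt1 (spot 5442) and Afap1l2 (spot 3669) were at -0.338 and 0.103. Whether spot numbers follow position on the filter is not known here. Clones of a set share its arrays with the members there, and the part of arrays or spot order in the values was not tested.

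Genes around the complex were counted from lists made for this purpose. At 704 to 743 against 169 to 194 days, and as description only, 8 of 12 measured assembly factors of complex IV were lower (median -0.0342), among them Cox10 (-0.108 ± 0.109), which makes heme O, the precursor of the enzyme's heme A, and Cox16 (-0.0956 ± 0.0824). The 12 include Fastk, whose place in that list is doubtful and which was lower in this and both tested comparisons (-0.0282 here). Cytochrome c itself (Cycs), the electron donor of complex IV, was at -0.0949. Of complex I 19 of 22 genes were lower (median -0.0415), of complex II 3 of 4 (-0.0748), of complex III 4 of 6 (-0.00939) and of ATP synthase 12 of 17 (-0.0490). Of 14 regulators of mitochondrial biogenesis 7 were lower and 7 higher (median 0.00137), with Nrf1, which encodes NRF-1, at -1.25e-05 ± 0.0816, Tfam at 0.0630 ± 0.0696 and Gabpb1, a GABP subunit, at 0.125 ± 0.0848. Among all genes with a clone 49.0% were lower in this comparison. None of these lists was compared with the subunits by a test.

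In the tested comparisons 0 genes of these lists were called in either direction. Among the respiratory and mitochondrial lists the smallest unadjusted p between the sexes was that of Cycs, higher in males by 0.135 ± 0.0426 (limma adjusted p = 0.814), followed by Uqcrc1 of complex III (0.0961 ± 0.0465) and Gabpb1 (-0.123 ± 0.0599), both with a limma adjusted p of 0.982. Next came Ndufa10 (-0.0898) and Ndufc2 (0.0919) of complex I and citrate synthase, Cs (-0.0976). At 476 to 499 against 17 to 44 days it was that of Sdhd, a membrane anchor of complex II, at 0.249 ± 0.0666 (limma adjusted p = 0.576), then Ndufc2 of complex I (-0.198 ± 0.0678) and Uqcrc2 of complex III (0.120 ± 0.0537), followed by Sdhb of complex II (0.158), Cs (-0.145) and Ndufa10 (-0.115). Assembly factors were higher for 9 and lower for 3 of 12 between those ages, where 44.9% of genes with a clone were lower. In males they were higher for 5 and lower for 7, where 49.4% of genes with a clone were lower. The isoforms Cox6b2 and Cox7a2l were at 0.135 ± 0.0849 and -0.0237 ± 0.0577 between the sexes and at -0.0153 ± 0.120 and 0.109 ± 0.0816 between those ages.

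Of 33 listed proximal tubule markers 5 had a clone, among them Lrp2, the endocytic receptor megalin, at the 94.1th and Miox at the 89.1th percentile of brightness. At 704 to 743 against 169 to 194 days 2 of 5 measured proximal tubule markers were lower and 3 higher (median 0.0437). Their mean deviation ran from -0.0450 through a median of 0.00303 to 0.0390 in the adult mice. In the oldest mice it ran from -0.0509 through 0.00232 to 0.305. Immune cell markers were lower for 3 of 8 (median 0.0355). Their mean deviations ran from -0.0940 through -0.0310 to 0.0730 and from -0.0426 through 0.0345 to 0.213. Podocyte markers were lower for 4 of 4 (median -0.0428). Their mean deviations ran from -0.125 through 0.0488 to 0.114 and from -0.116 through -0.0321 to 0.109. Of the other lists, fibroblast and matrix markers were lower for 6 of 9, endothelial for 3 of 5 and liver for 3 of 5. Adrenal markers were lower for 2 of 5, loop of Henle and distal tubule for 1 of 3, and collecting duct for 1 of 2. The 1 skeletal muscle marker with a clone was lower. Among genes with a clone 49.0% were lower. The part of these cell types in the subunits' difference was not tested. The mean correlation of each filter with the rest of its set was between 0.891 and 0.976, 5 mice had an array outlying by that measure, and rounds of arrays held from 4.06% (Cox8a) to 49.1% (Cox5b) of a member clone's variance.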

How the data were processed

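RNA from each kidney was radioactively labelled and hybridised to 2 filters of 8448 clones, per the labels' protocols. The authors deposited one score per clone and array, a z score with mean 0 and SD 1 in each column; the image reading, the background correction and the scale beneath are unknown here. Both sets were quantile normalized separately, because interquartile ranges departed by up to 7.63% between arrays, and fitted with limma 3.58.1 (R 4.3.3) on the 8 sex and age means of 40 mice; the slope was fitted per year of 365 days. Benjamini-Hochberg adjustment ran over 16896 clones, with calls at an adjusted p under 0.05. The number of arrays limits the precision.

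The members, gene lists, naming rule and tests were chosen with earlier results of these data known. A gene was represented by its brightest clone in summaries. All member clones are named; of the respiratory and mitochondrial lists as a whole, the 3 genes of smallest p in each direction of the sex and age tests, all measured isoforms, the clones most like the members, and a few genes added after their values were seen (Cox10, Cox16, Fastk, Nrf1, Tfam, Lrp2, Miox, Xist, Uty, Eif2s3y, and Gabpb1 in the description of age). Rounds of arrays were inferred from serial numbers in the titles; every round had 1 mouse of each sex and age. For 1 male of 714 days the description names another mouse than the title, and its sex and age fields were followed. Clones were named from the platform table (9663 with 1 symbol, 436 with several, 6797 not listed); 9641 matched RefSeq by gene identifier and 0 symbols changed. The fits were tested on simulated data: of 100 changed clones in each of 3 runs, 95.0% of changes of 0.4 array SD and 44.7% of 0.2 were called for sex, and 69.7% and 11.0% for 476 to 499 minus 17 to 44 days. Alternatives were the values as deposited, round as a block, array weights, omission of dim clones, of mice of 17 to 21 days, of mice with an outlying array and of each mouse in turn, and ordinary least squares.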

Additional observations from a re-analysis of the deposited data

Results flagged for a closer look

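The 8 groups of 5 mice were screened, for each of the 12 clones and for the mean of the 10 genes, for a mouse far from the rest of its group. Of 104 such sets of values, 12 held one by Dixon's criterion at its 95% critical value, which by its construction marks about 1 group in 20 by chance. The sets share mice and arrays and are not independent. At 169 to 194 days these were male replicate 4 for Cox8a (1.25, others 0.428 to 0.465) and Cox7b (-0.175, others -0.799 to -0.656), male replicate 2 for Cox6a1 (0.414), female replicate 2 for Cox6a1 (0.455) and female replicate 5 for Cox5b (0.168). At 476 to 499 days they were female replicate 2 for Cox4i1 spot 339 (1.60), male replicate 3 for Cox4i1 spot 14874 (0.316), female replicate 4 for Cox5a (-0.521) and male replicate 1 for Cox7c (0.0975). At 704 to 743 days they were female replicate 4 for Cox7a2 (-0.836, others -0.156 to -0.0465) and for the mean of the 10 genes (-0.135, others -0.0462 to -0.0244), and female replicate 5 for Cox7c (0.394). The mice behind the Cox8a, Cox7b, Cox7a2 and Cox5b values each had an outlying array in the set of that clone.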

How the results depend on the processing

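The described difference between 704 to 743 and 169 to 194 days kept a median below 0 under every setting, from -0.0892 to -0.0592, and the slope a median from -0.0389 to -0.0258, but the genes were chosen by that difference in these mice, so its sign is no sign of stability. Medians near 0 changed sign: male minus female lay between -0.0236 and 0.0198 and 476 to 499 minus 17 to 44 days between -0.0133 and 0.0630. No member clone was called in a tested comparison under any setting. Counts of called clones over both sets moved without the mice of 17 to 21 days, to 11 for male minus female (from 18), 1 for 476 to 499 minus 17 to 44 days and 1 for 169 to 194 minus 17 to 44 days (both from 0). With array weights 1 clone was called for 704 to 743 minus 169 to 194 days and 1 for the slope, where the round block gave 2, ordinary least squares 1 and leaving out each mouse 0 to 1. Rounds are a block inferred from titles, and the replicate block used that round; it changed no member's call. Cox7b and Cox5a could not be fitted without the dimmest 25% of clones. The median SE of 0.0779 for an age comparison limits what 10 mice a group can show.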
